A study of Mus musculus with 15 samples.

Results

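The nuclear genes of respiratory chain complexes I to V were described in mouse spleen T cells and B cells, at rest and after mitogen stimulation. The set held the genes whose symbol begins with Nduf followed by a, b, c, s or v, the genes Sdha, Sdhb, Sdhc and Sdhd, and those whose symbol begins with Uqcr, Cox4 to Cox8 or Atp5. This rule gave 90 of the 18194 genes on the arrays, each read from its brightest probe set by the mean of the 15 arrays, and 81 of them reached the level needed for testing, a mean log2 signal of at least 5 in 1 group or more. They comprised 34 genes of complex I (32 tested), 8 complex I assembly factors with Ndufaf names (8 tested), 4 of complex II (4 tested), 8 of complex III (8 tested), 19 of complex IV (12 tested) and 17 of complex V (17 tested). Ndufa4 and Ndufa4l2 are given with complex IV, to which they are now assigned in mammals. The 5 groups of 3 arrays each were B cells treated for 4 h with 25 ug/ml LPS, B cells at 0 h, T cells at 0 h, and T cells kept with 7.5 ug/ml of the lectin concanavalin A (ConA) for 4 h or 14 h. LPS, from bacterial outer membranes, signals through Toll-like receptor 4, and ConA, from jack beans, activates T cells by binding glycoproteins of their surface. All samples carried the strain label B6x129, and 100 ng of total RNA from each was labelled. The labels do not say whether replicates were separate mice or separate cultures, so p-values measure only the spread between these samples, which may be technical. No group was cultured without a mitogen, so time in culture and stimulation cannot be told apart, and with equal RNA mass on each array neither can fewer cells of a type and less RNA per cell.

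The respiratory chain sits in the inner mitochondrial membrane. Complex I takes electrons from NADH and complex II, which is also an enzyme of the tricarboxylic acid cycle, takes them from succinate. Both pass them to ubiquinone, complex III passes them on to cytochrome c, and complex IV passes them to oxygen. Complexes I, III and IV pump protons, and complex V, the ATP synthase, uses the returning protons to make ATP. Complexes I, III, IV and V also hold subunits encoded by mitochondrial DNA, which are not members here. Resting lymphocytes have few and small mitochondria, and activated T cells build more mitochondrial mass as they grow.

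All values are log2 signals, and values of different genes come from different probe sets, so levels are compared only within a gene. A change is given as a log2 difference ± its standard error from a limma fit over the 15 arrays, and a gene is said to have risen or fallen where its Benjamini-Hochberg adjusted p over 9045 genes was under 0.05. Some arrays and groups stood apart before any comparison. The dap spike-in, an RNA added during labelling, gave a 3' signal above its 5' signal by 5.94 on T ConA 4 h replicate 1 and by 4.59 on T 0 h replicate 2, against 1.82 to 2.67 on the other T cell arrays and 0.90 to 1.44 on the B cell arrays. Of the 81 tested genes, 71 had their group's highest value on T ConA 4 h replicate 1, and 63 on T 0 h replicate 2. Xist, transcribed from the silenced X chromosome in females, read 2.24 to 2.42 after LPS and 11.984 to 12.004 in B cells at 0 h. The T cell arrays gave 12.15 to 12.31 at 0 h, 2.38 to 4.33 at 4 h and 11.70 to 11.86 at 14 h. The Y-linked gene Eif2s3y read at least 10.02 on every array. The sex of the mice is not given in the labels. Xist was low in both 4 h groups and high in the other 3, so its state and time cannot be told apart where 4 h is compared with another time. T cells at 14 h and at 0 h both had high Xist, with Eif2s3y at 10.02 to 10.16 at 14 h and 10.61 to 10.91 at 0 h.

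Most defining markers followed the labelled cell types. The B cell genes Cd79a and Pax5 lay under 3 in all T cell groups, and the T cell genes Cd3d, Cd3g and Thy1 lay under 3 in both B cell groups. Others were above the tested level of 5 in the other cell type, Cd79b with means of 6.90 to 7.65 and Ms4a1 with 6.08 to 7.03 in the T cell groups, and Cd3e with 5.31 after LPS and 5.04 at 0 h in B cells. Summed over the 5 B cell markers on the array, the linear signal was 234.9 to 376.8 on the T cell arrays, against 18070 to 22540 on B cell arrays after LPS and 70970 to 75140 at 0 h. Markers of other cells moved with the groups. The summed linear signal of 4 neutrophil markers was 237.1 to 304.1 on the T cell arrays at 0 h, 1394 to 2004 at 4 h and 39.5 to 49.9 at 14 h of ConA, with Ltf under 3 in all of these and Ngp and S100a9 also under 3 at 14 h. In B cells it was 195.4 to 225.4 after LPS and 1533 to 1839 at 0 h. The 5 erythroid markers on the array summed to 5026 to 5311 in T cells at 0 h, 258.8 to 293.9 with ConA for 4 h and 168.3 to 183.9 for 14 h. In B cells they summed to 1499 to 1629 after LPS and 4796 to 5172 at 0 h, and the 6 monocyte and macrophage markers to 116.5 to 152.2 after LPS and 4438 to 4663 at 0 h. The erythroid marker Hba-a1 lay under 3 in every group, Alas2 in all T cell groups and Klf1 in T cells at 14 h. The 3 natural killer cell markers on the array summed to 6606 to 6891 in T cells at 0 h, 2206 to 2695 with ConA for 4 h and 2612 to 2846 for 14 h, with Ncr1 under 3 throughout. The 5 dendritic cell markers summed to 807.6 to 1047 in B cells after LPS, against 132.4 to 153.8 at 0 h, but they did not move together. Zbtb46 averaged 9.488 after LPS and 4.865 at 0 h, and Flt3 7.288 and 4.994. Itgax went the other way, at 2.341 after LPS and 6.079 at 0 h, and Siglech and Xcr1 lay under 3 in both. The part of these cells in the results below was not tested.

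Over the 5 groups the respiratory chain genes were highest in T cells at 14 h of ConA. The mean over the 81 tested genes read 10.98, 11.06 and 10.97 on the 3 T cell arrays at 0 h, 11.17, 10.99 and 11.002 at 4 h and 11.41, 11.45 and 11.47 at 14 h. The B cell arrays gave 10.69, 10.69 and 10.69 after LPS and 10.58, 10.59 and 10.59 at 0 h. All arrays at 14 h thus lay above every other array, and all B cell arrays lay below every T cell array. For 67 of the 81 genes the highest of the 5 group means was that at 14 h, and for 38 genes the lowest was in B cells at 0 h and for 31 in B cells after LPS. This order was not counted over all genes, so these numbers have no share to stand beside. Of all genes tested, 51.1% were lower in B cells than in T cells at 0 h. Complex III averaged 11.15 ± 0.04 at 0 h, 11.40 ± 0.06 at 4 h and 11.79 ± 0.04 at 14 h in T cells (SD, n = 3 each), with no overlap between neighbouring times. Complex IV averaged 11.52 ± 0.09 at 0 h, 11.21 ± 0.11 at 4 h and 11.52 ± 0.04 at 14 h, and its 4 h arrays lay below both other times. That mean at 4 h rests on Cox6b2, Cox7c and Cox7a2l, described below, since the median change over the 12 genes between 0 h and 4 h was -0.011, with 6 above 0 and 6 below. Complex II gave 10.38, 10.11 and 10.08 on the 4 h arrays, of which replicate 1 lay far above the other 2 and these within the range at 0 h.

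**Figure D1:**
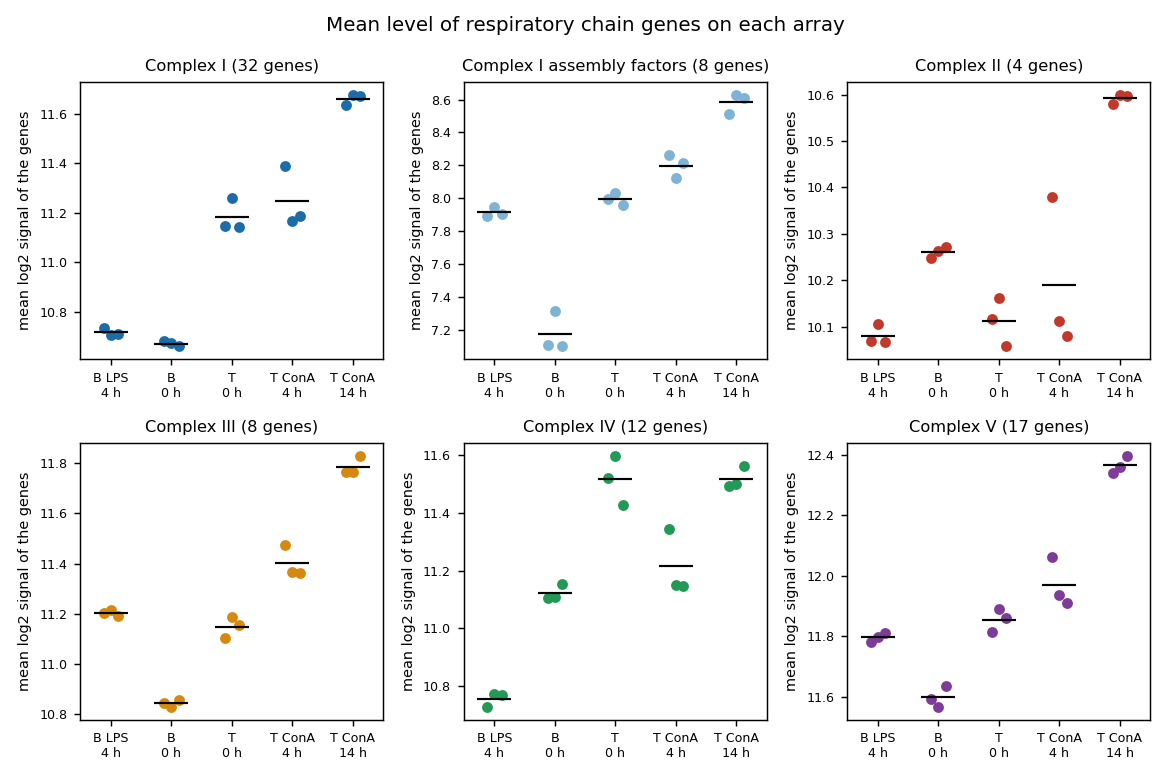
Mean log2 signal of the tested genes of each complex on each array (points) with the group mean (line), for B cells after 4 h of LPS, B cells at 0 h, and T cells at 0 h, 4 h and 14 h of ConA. In every panel the T cell arrays at 14 h lie above those at 4 h, and 1 array at 4 h lies above its 2 replicates in complexes I to V.

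Between 4 h and 14 h of ConA, 65 of the 81 tested genes rose and 1 fell, against 27.4% rising and 21.5% falling of all genes tested. Respiratory chain genes are bright, and among the 1913 genes with a mean level of at least 10 the shares were 29.6% and 23.9%. The median change was 0.38 (1.31-fold), against 0.02 over all genes, and no member changed 2-fold. The 3 arrays at 14 h all lay above the 3 at 4 h for 68 members and all below for 1, which happened for 32.3% and 26.4% of all genes. Leaving the Ndufaf assembly factors aside, 61 of the 73 subunit genes rose, 0 fell by the limma test, and all 73 fitted changes were above 0, from 0.06 to 0.85. The count was 67 rising and 1 falling without T ConA 4 h replicate 1, and 69 and 1 with the dap spike-in difference as a covariate. Xist and the neutrophil markers differed between these groups as given above, and their part in the counts was not tested. By complex, 31 of 32 genes of complex I, 3 of 4 of complex II, 7 of 8 of complex III, 7 of 12 of complex IV and 13 of 17 of complex V rose, with medians of 0.42, 0.35, 0.33, 0.28 and 0.37. The changes ran from 0.17 to 0.73 in complex I, 0.06 to 0.85 in complex II, 0.23 to 0.64 in complex III, 0.10 to 0.57 in complex IV and 0.07 to 0.85 in complex V.

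**Figure D2:**
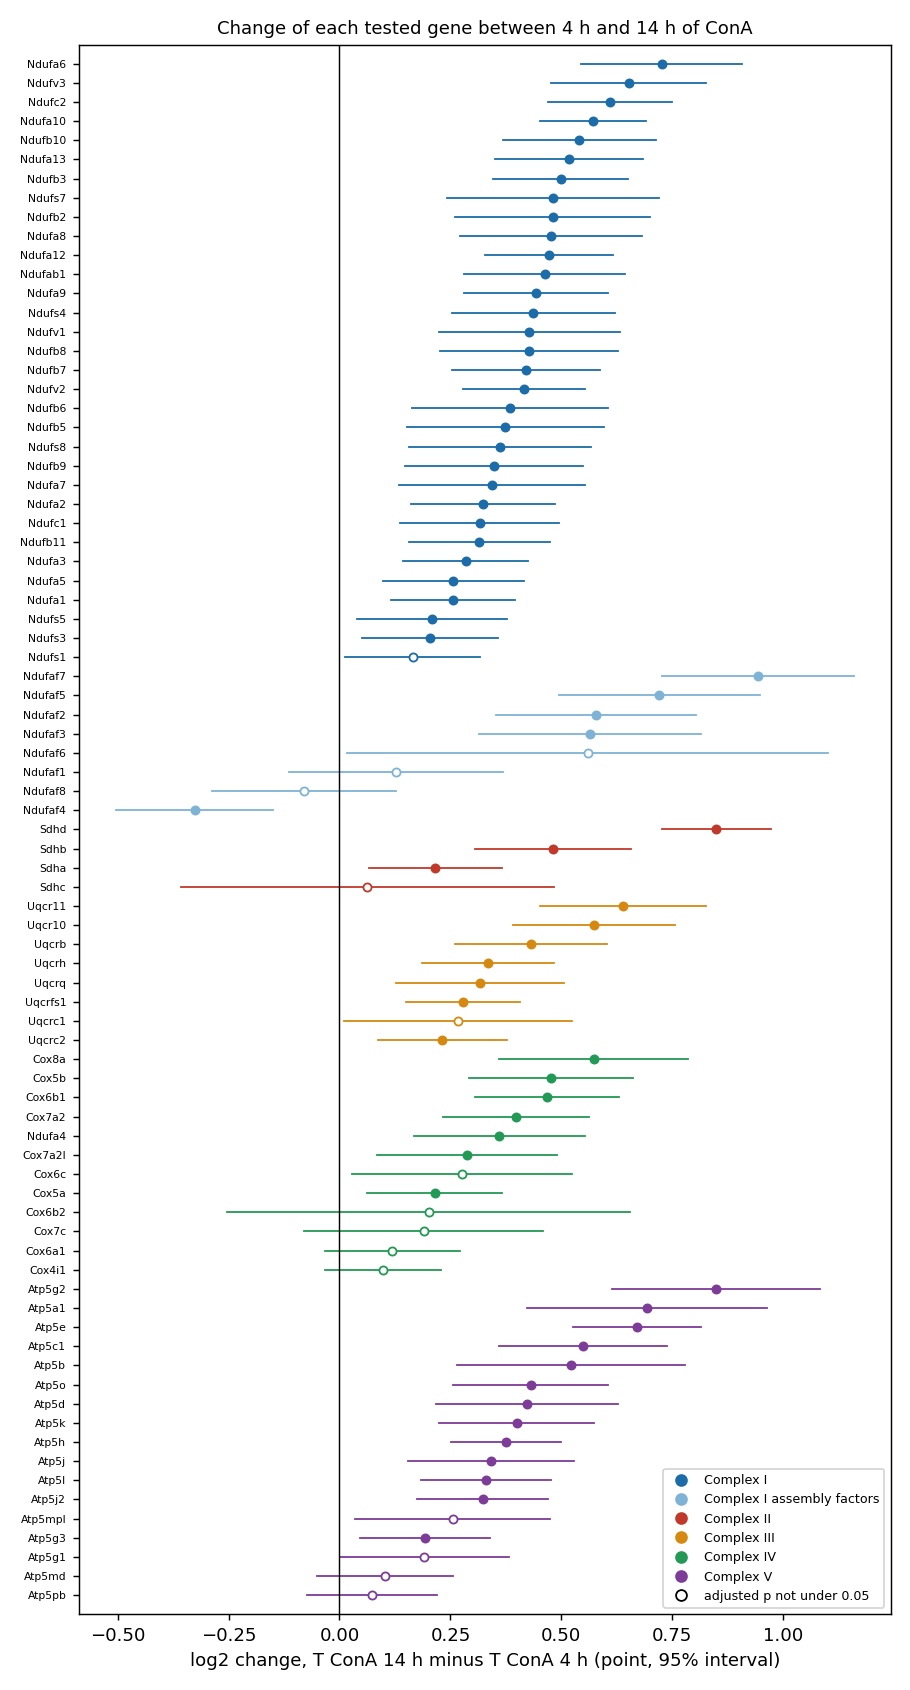
Log2 change of each of the 81 tested genes, T ConA 14 h minus T ConA 4 h (point) with its 95% interval (line), grouped by complex, with open points where the adjusted p was not under 0.05. All 73 subunit genes lie right of 0, the largest being Sdhd and Atp5g2 at 0.85, and Ndufaf4 lies left of 0 at -0.33.

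In complex I the 4 largest rises were those of accessory subunits, which surround the catalytic core. Ndufa6, a subunit that binds the mitochondrial acyl carrier protein, read 11.87, 11.91 and 11.93 at 14 h, against 11.39, 11.05 and 11.09 at 4 h. It rose by 0.73 ± 0.08 (adjusted p = 1.16e-05), and the arrays did not overlap although replicate 1 at 4 h was the highest of its group. Ndufv3, of the NADH-oxidising module, read 11.28, 11.25 and 11.35 at 14 h and 10.79, 10.61 and 10.52 at 4 h, a rise of 0.65 ± 0.08 (adjusted p = 2.07e-05). The membrane-arm subunits Ndufc2 and Ndufa10 rose by 0.61 ± 0.06 (adjusted p = 5.09e-06) and 0.57 ± 0.06 (adjusted p = 2.29e-06), again without overlap. The changes of the core subunits named here were smaller. Ndufs7, which carries the last iron-sulfur cluster before ubiquinone, read 11.61, 11.62 and 11.55 at 14 h, against 11.38, 10.87 and 11.08 at 4 h, and rose by 0.48 ± 0.11 (adjusted p = 0.00275). Ndufv1, which binds NADH and the flavin, rose by 0.43 ± 0.09 (adjusted p = 0.00206). Ndufs1, the largest iron-sulfur subunit, was the 1 tested gene of complex I that did not pass, with 10.29, 10.19 and 10.36 at 14 h and 9.98, 10.15 and 10.22 at 4 h. These overlapped, and the change of 0.17 ± 0.07 (adjusted p = 0.0673) had an interval of 0.01 to 0.32. Ndufs1 passed without T ConA 14 h replicate 2 or T ConA 4 h replicate 3 (0.21 in both cases, adjusted p = 0.0439 and 0.0359).

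The complex I assembly factors, which help build the complex and are not part of it, were split. Of the 8 with Ndufaf names 4 rose and 1 fell, with a median of 0.56. Ndufaf7, a methyltransferase that modifies an arginine of a core subunit, gave 8.10, 8.30 and 8.04 at 14 h and 7.14, 7.10 and 7.37 at 4 h, and its rise of 0.94 ± 0.10 (adjusted p = 4.97e-06) was the largest among all members. Ndufaf5, known in human cells to hydroxylate an arginine of the core subunit NDUFS7, rose by 0.72 ± 0.10 (adjusted p = 8.06e-05). Ndufaf2, a relative of the subunit Ndufa12, and Ndufaf3, an early assembly factor, rose by 0.58 ± 0.10 (adjusted p = 0.000465) and 0.57 ± 0.12 (adjusted p = 0.00122). Ndufaf4, the partner of Ndufaf3 in early assembly, went the other way. It read 10.40, 10.31 and 10.21 at 14 h, against 10.65, 10.57 and 10.68 at 4 h, and fell by 0.33 ± 0.08 (adjusted p = 0.00491), with all 14 h arrays below those at 4 h. A second probe set of Ndufaf4 changed by -0.47 ± 0.07 (adjusted p = 0.000128).

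Complex II has 4 nuclear subunits and no mitochondrially encoded one. Its largest change was in Sdhd, a membrane anchor at the ubiquinone site. It read 10.41, 10.48 and 10.51 at 14 h, against 9.67, 9.56 and 9.62 at 4 h, and rose 1.8-fold, by 0.85 ± 0.06 (adjusted p = 7.8e-08). The 14 h arrays were the highest of all 15, while the 4 h arrays lay below the 0 h arrays at 9.80, 9.77 and 9.79. Sdhb, the iron-sulfur subunit, rose by 0.48 ± 0.08 (adjusted p = 0.000276), and Sdha, the flavoprotein that oxidises succinate, by 0.22 ± 0.07 (adjusted p = 0.0204). The call on Sdha was lost without T ConA 4 h replicate 1 (0.18, adjusted p = 0.0602) or 3 and without T ConA 14 h replicate 1 or 3 (0.21 each, adjusted p = 0.0549, 0.0526 and 0.0542). A second bright probe set of Sdha rose by 0.63 ± 0.10 (adjusted p = 0.000184). Sdhc, the other membrane anchor, did not pass (0.06 ± 0.19, adjusted p = 0.832, with an interval of -0.36 to 0.48). Its arrays read 9.73, 9.81 and 9.62 at 14 h and 10.30, 9.35 and 9.33 at 4 h, and without T ConA 4 h replicate 1, the high one, the change was 0.38 (adjusted p = 0.00523).

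Complex III has 8 tested members, of which 7 rose. The small membrane subunits Uqcr11 and Uqcr10 led, at 0.64 ± 0.09 (adjusted p = 4.45e-05) and 0.57 ± 0.08 (adjusted p = 8.89e-05). Uqcr11 read 10.63, 10.64 and 10.65 at 14 h, against 10.20, 9.86 and 9.94 at 4 h, and the 14 h arrays nearly coincided. Uqcrb, next to the ubiquinone site, rose by 0.43 ± 0.08 (adjusted p = 0.000537), the hinge protein Uqcrh, next to cytochrome c1, by 0.34 ± 0.07 (adjusted p = 0.00123), and the Rieske iron-sulfur subunit Uqcrfs1 by 0.28 ± 0.06 (adjusted p = 0.00157). Uqcrc1, a large core subunit, did not pass, with 10.72, 10.63 and 10.86 at 14 h and 10.20, 10.65 and 10.56 at 4 h. There T ConA 4 h replicate 1 was the lowest of its group, unlike most members. The change was 0.27 ± 0.12 (adjusted p = 0.0808), and 0.36 (adjusted p = 0.0364) without T ConA 4 h replicate 2.

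Complex IV had the lowest share of rising subunits, 7 of 12, and the lowest median. The difference between complexes was not tested. Cox8a, a small membrane subunit, read 10.91, 10.79 and 10.98 at 14 h, against 10.55, 10.19 and 10.22 at 4 h, and rose by 0.57 ± 0.10 (adjusted p = 0.00033). Cox5b, which binds zinc on the matrix side, and Cox6b1, on the cytochrome c side, rose by 0.48 ± 0.09 (adjusted p = 0.000465) and 0.47 ± 0.08 (adjusted p = 0.000184), and Cox7a2 and Ndufa4 by 0.40 ± 0.08 (adjusted p = 0.000731) and 0.36 ± 0.09 (adjusted p = 0.00444). Cox7a2l, which joins complexes III and IV in supercomplexes, rose by 0.29 ± 0.09 (adjusted p = 0.0214). The call was lost (0.22 to 0.28, adjusted p = 0.0577 to 0.0963) without T ConA 14 h replicate 1 or 3, or T ConA 4 h replicate 2 or 3. Cox4i1, the general isoform of a regulatory subunit, read 13.08, 13.10 and 13.14 at 14 h, against 13.09, 12.99 and 12.95 at 4 h, and Cox6a1 read 13.92, 13.80 and 13.95 at 14 h, against 13.84, 13.78 and 13.70 at 4 h. Both pairs of groups overlapped, and the intervals of the changes were -0.03 to 0.23 for Cox4i1 and -0.03 to 0.27 for Cox6a1. A second bright probe set of Cox6a1 rose by 0.34 ± 0.07 (adjusted p = 0.000981). Where a subunit has a general and a tissue-restricted isoform among the members, the general one was tested and the restricted one was at or near the floor of 2.24. For Cox7b2, also at the floor, no general isoform was among the members. Cox4i2, known from lung, read 2.69 or 2.70 on all arrays, and the heart and muscle isoforms Cox6a2, Cox7a1 and Cox8b, the testis isoforms Cox7b2 and Cox8c, and the hypoxia-induced Ndufa4l2 lay between 2.24 and 2.34 throughout. The exception was Cox6b2, a testis isoform of Cox6b1. It read 6.44, 6.02 and 5.52 on the T cell arrays at 0 h, 3.98, 3.96 and 3.72 at 4 h and 3.91, 4.15 and 4.20 at 14 h.

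In complex V, 13 of 17 members rose. The catalytic head is formed by alternating alpha (Atp5a1) and beta (Atp5b) subunits around the rotating gamma subunit (Atp5c1), which carries epsilon (Atp5e). Atp5a1 read 12.58, 12.41 and 12.69 at 14 h, against 11.62, 12.04 and 11.94 at 4 h, and Atp5b read 13.33, 13.38 and 13.31 at 14 h, against 12.53, 12.99 and 12.92 at 4 h. In both, T ConA 4 h replicate 1 was the lowest array at 4 h, and neither overlapped. The rises were 0.69 ± 0.12 (adjusted p = 0.000471) for Atp5a1, 0.52 ± 0.12 (adjusted p = 0.00253) for Atp5b, 0.55 ± 0.09 (adjusted p = 0.000179) for Atp5c1 and 0.67 ± 0.07 (adjusted p = 2.93e-06) for Atp5e. A second bright probe set of Atp5a1 rose by 0.26 ± 0.06 (adjusted p = 0.00394), and a dimmer one changed by 0.45 ± 0.20 (adjusted p = 0.0827). A dimmer probe set of Atp5c1 changed by -0.070 ± 0.17 (adjusted p = 0.769). The tested members of complex V that did not pass were the c subunit gene Atp5g1 and, named here after their values were seen, the accessory subunit genes Atp5mpl and Atp5md and the stalk subunit gene Atp5pb. A second bright probe set of Atp5pb rose by 0.32 ± 0.06 (adjusted p = 0.000486).

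The membrane ring of complex V is built from copies of 1 small c subunit, and 3 nuclear genes, Atp5g1, Atp5g2 and Atp5g3, encode the same mature protein behind different import signals. Their calls over time differed, and the difference between the genes was not tested. Atp5g1 read 10.22, 10.56 and 10.46 on the T cell arrays at 0 h, 11.40, 11.24 and 11.18 at 4 h and 11.42, 11.49 and 11.48 at 14 h. Atp5g2 read 11.27, 11.44 and 11.18 at 0 h, 11.27, 10.82 and 10.85 at 4 h and 11.80, 11.80 and 11.89 at 14 h. Atp5g1 had thus reached most of its 14 h level by 4 h, while Atp5g2 was at its lowest at 4 h apart from replicate 1, which matched the 0 h arrays. Between 4 h and 14 h Atp5g2 rose by 0.85 ± 0.11 (adjusted p = 2.79e-05), Atp5g3 by 0.19 ± 0.07 (adjusted p = 0.031), and Atp5g1 changed by 0.19 ± 0.09 (adjusted p = 0.0887). Between 0 h and 4 h Atp5g1 rose by 0.86 ± 0.09 (adjusted p = 1.17e-06) and Atp5g3 by 0.27 ± 0.07 (adjusted p = 0.00343), and Atp5g2 fell by 0.32 ± 0.11 (adjusted p = 0.0204). Some of these calls turned on single arrays. Atp5g1 passed between 4 h and 14 h without T ConA 4 h replicate 1 (0.26, adjusted p = 0.0341) or T 0 h replicate 1 (0.19, adjusted p = 0.048). Atp5g3 no longer passed there without T ConA 14 h replicate 1 or 3 or T ConA 4 h replicate 3 (0.15 to 0.18, adjusted p = 0.085 to 0.117). The 4 h fall of Atp5g2 was lost without T 0 h replicate 2 or T ConA 4 h replicate 2 or 3 (-0.24 to -0.25, adjusted p = 0.0885 to 0.0937), and a dimmer probe set of the gene changed by 0.40 ± 0.18 (adjusted p = 0.0704) there and by -0.29 ± 0.18 (adjusted p = 0.214) between 4 h and 14 h.

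**Figure D3:**
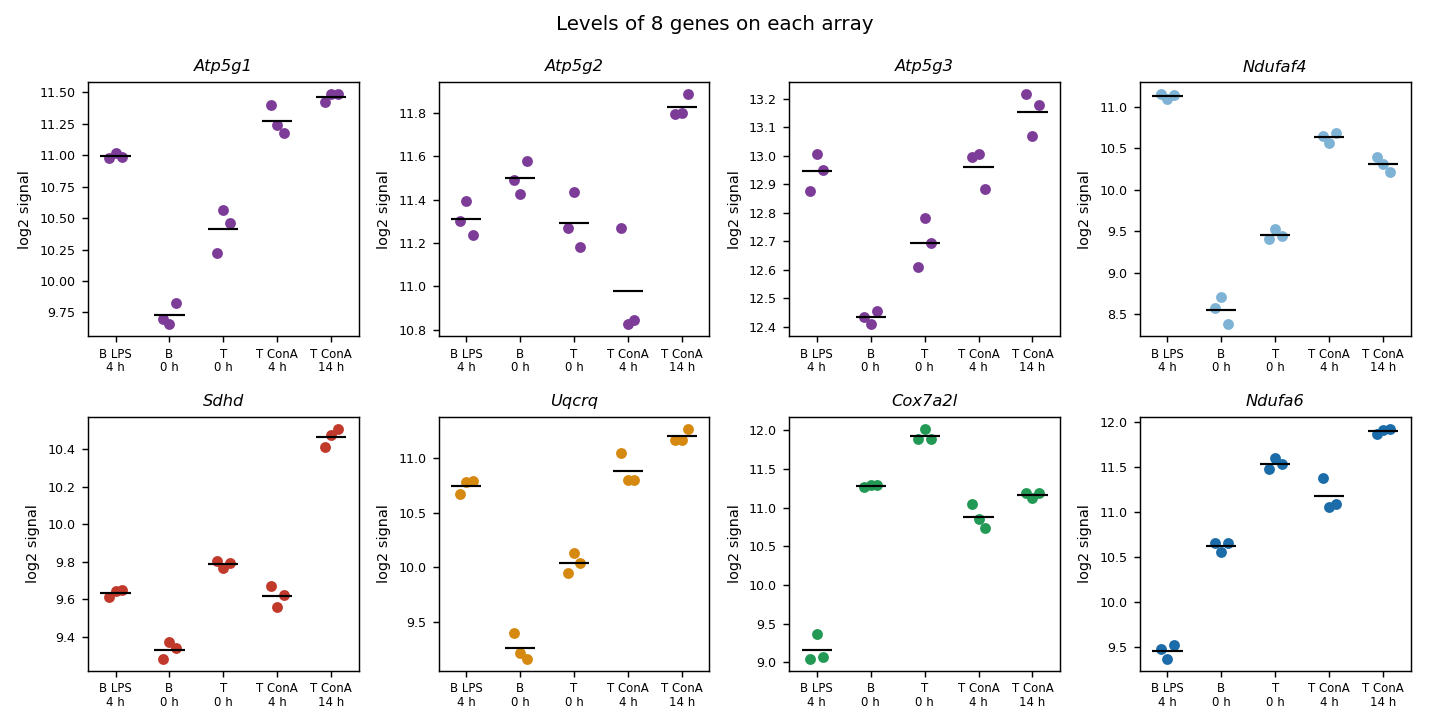
Log2 signal of 8 genes on each array (points) with the group mean (line). Atp5g1 and Atp5g3 are higher at 4 h than at 0 h in both cell types and Atp5g2 is not, Ndufaf4 peaks in the 4 h groups, and Sdhd has its highest arrays at 14 h of ConA.

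Promoter sequences are shown for the 3 c subunit genes, because they encode 1 protein and had different calls, for Sdhd, the largest rise of complex II, and for Ndufaf4, the 1 member that fell between 4 h and 14 h. They are RefSeq sequences of build GRCm38.p6, 250 bases before to 50 bases after a start that the table lists for the gene, 5′ to 3′ on the gene's strand. For Atp5g1 and Atp5g3 that start lies inside the gene, downstream of its outermost annotated start. Capitals mark matches, on either strand, to the NRF1 motif (a GCGC and a TGCGC with any 1 base between), CCGGAAG (ETS family), CACGTG (E-box, bound by Myc among others) or AAGGTCA (ERR).
Atp5g1 (chr11:96075582-96075881, minus strand): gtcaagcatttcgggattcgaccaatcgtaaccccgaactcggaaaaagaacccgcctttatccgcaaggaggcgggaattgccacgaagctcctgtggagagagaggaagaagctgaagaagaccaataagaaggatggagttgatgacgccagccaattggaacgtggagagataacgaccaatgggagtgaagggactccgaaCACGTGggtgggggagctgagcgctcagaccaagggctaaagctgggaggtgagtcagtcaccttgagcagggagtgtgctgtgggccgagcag
Atp5g2 (chr15:102670998-102671297, minus strand): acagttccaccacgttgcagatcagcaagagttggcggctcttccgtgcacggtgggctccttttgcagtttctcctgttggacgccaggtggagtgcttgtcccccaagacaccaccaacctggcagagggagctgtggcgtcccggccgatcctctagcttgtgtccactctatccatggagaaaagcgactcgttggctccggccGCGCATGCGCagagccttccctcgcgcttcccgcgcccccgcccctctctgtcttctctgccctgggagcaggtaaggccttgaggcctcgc
Atp5g3 (chr2:73911277-73911576, minus strand): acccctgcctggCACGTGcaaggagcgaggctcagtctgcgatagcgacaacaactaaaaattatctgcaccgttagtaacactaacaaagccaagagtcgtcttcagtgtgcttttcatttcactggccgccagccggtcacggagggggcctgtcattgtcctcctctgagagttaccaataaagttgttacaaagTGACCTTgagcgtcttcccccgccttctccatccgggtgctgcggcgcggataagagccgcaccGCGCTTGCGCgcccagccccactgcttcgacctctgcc
Sdhd (chr9:50603800-50604099, minus strand): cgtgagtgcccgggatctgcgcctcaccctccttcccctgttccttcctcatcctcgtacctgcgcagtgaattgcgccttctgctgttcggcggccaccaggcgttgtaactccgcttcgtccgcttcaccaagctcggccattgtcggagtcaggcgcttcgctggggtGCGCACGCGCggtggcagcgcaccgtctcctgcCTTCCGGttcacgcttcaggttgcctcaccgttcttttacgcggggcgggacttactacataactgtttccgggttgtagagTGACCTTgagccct
Ndufaf4 (chr4:24897833-24898132, plus strand): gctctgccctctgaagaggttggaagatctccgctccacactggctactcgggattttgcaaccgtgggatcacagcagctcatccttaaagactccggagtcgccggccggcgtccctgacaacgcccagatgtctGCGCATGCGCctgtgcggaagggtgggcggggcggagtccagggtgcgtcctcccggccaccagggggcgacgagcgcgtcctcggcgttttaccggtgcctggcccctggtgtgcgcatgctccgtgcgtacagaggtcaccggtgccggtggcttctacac
Of these, Atp5g1 has the E-box letters and no NRF1 match, Atp5g2 and Ndufaf4 have 1 NRF1 match each, Atp5g3 has NRF1, E-box and ERR matches, and Sdhd has NRF1, ETS and ERR matches. Over the 74 members found in the promoter table, 21.6% had an NRF1 match, against 4.78% of all 27025 promoters of the same length. The shares were 24.3% against 9.12% for ETS, 8.11% against 7.24% for the E-box, 10.8% against 4.66% for ERR, and 10.8% against 2.51% for YY1 (AANATGGCG). The 27025 promoters include those of genes not tested here, and shares over the 9045 tested genes were not computed. Whether the higher shares are particular to the members was thus not tested. Each motif was searched on its own, so matches of different motifs may overlap. A match is a description of letters and says nothing on whether a factor bound there.

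From 0 h to 4 h of ConA the members went both ways. Of the 81 genes 28 rose and 17 fell, beside 33.4% and 32.5% of all genes, with a median of 0.08. Without T ConA 4 h replicate 1 the counts were 22 and 22, and without T 0 h replicate 2 they were 30 and 14. After cyclic loess they were 20 and 21. Rises were led by Ndufaf4 (1.18 ± 0.08, adjusted p = 2.34e-08), the c subunit gene Atp5g1, and Uqcrq, a small subunit beside the ubiquinone site of complex III (0.85 ± 0.09, adjusted p = 1.38e-06). Uqcrq read 11.05, 10.80 and 10.80 at 4 h, against 9.95, 10.14 and 10.04 at 0 h, with no overlap. In complex I the accessory subunits Ndufa5 and Ndufa12 rose by 0.76 ± 0.07 (adjusted p = 7e-07) and 0.72 ± 0.07 (adjusted p = 4.82e-07), while Ndufv3 and Ndufb10 fell by 0.63 ± 0.08 (adjusted p = 1.12e-05) and 0.62 ± 0.08 (adjusted p = 1.14e-05). In complex IV, Cox7c, a small membrane subunit, fell by 1.12 ± 0.12 (adjusted p = 2.79e-06) and Cox7a2l by 1.05 ± 0.09 (adjusted p = 2.93e-07). Cox7a2l read 11.05, 10.85 and 10.74 at 4 h, against 11.88, 12.02 and 11.89 at 0 h, and its other 2 probe sets fell by 0.94 ± 0.07 and 1.06 ± 0.08. Cox6b2 changed by -2.11 ± 0.21. It reached the tested level only through the 0 h groups, so a fall from them follows from how it was kept, and here as in the next comparisons it is counted among the falls but supports nothing. In complex II, Sdhd fell by 0.17 ± 0.06 (adjusted p = 0.0165), and that call was lost without T ConA 4 h replicate 2 (-0.14, adjusted p = 0.0676). Sdha changed by -0.02 ± 0.07 on its brightest probe set and fell by 0.55 ± 0.10 (adjusted p = 0.000291) on the next, and Sdhb and Sdhc did not pass. At 14 h against 0 h, a comparison that shares arrays with both others, 67 members rose and 5 fell, against 36.6% and 31.9% of all genes, with a median of 0.47. The 5 that fell were Cox7c (-0.93 ± 0.12), Cox7a2l (-0.76 ± 0.09), Ndufaf1 (-0.59 ± 0.11), Cox6b2 (-1.91 ± 0.21) and Ndufb11 (-0.24 ± 0.07), of which Ndufb11 did not pass without T 0 h replicate 2 (-0.18, adjusted p = 0.0554). Rises were largest for the assembly factor Ndufaf2 (1.29 ± 0.10, adjusted p = 1.01e-07), Ndufa12 (1.19 ± 0.07, adjusted p = 3.02e-09) and Uqcrq (1.16 ± 0.09, adjusted p = 5.46e-08).

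**Figure D4:**
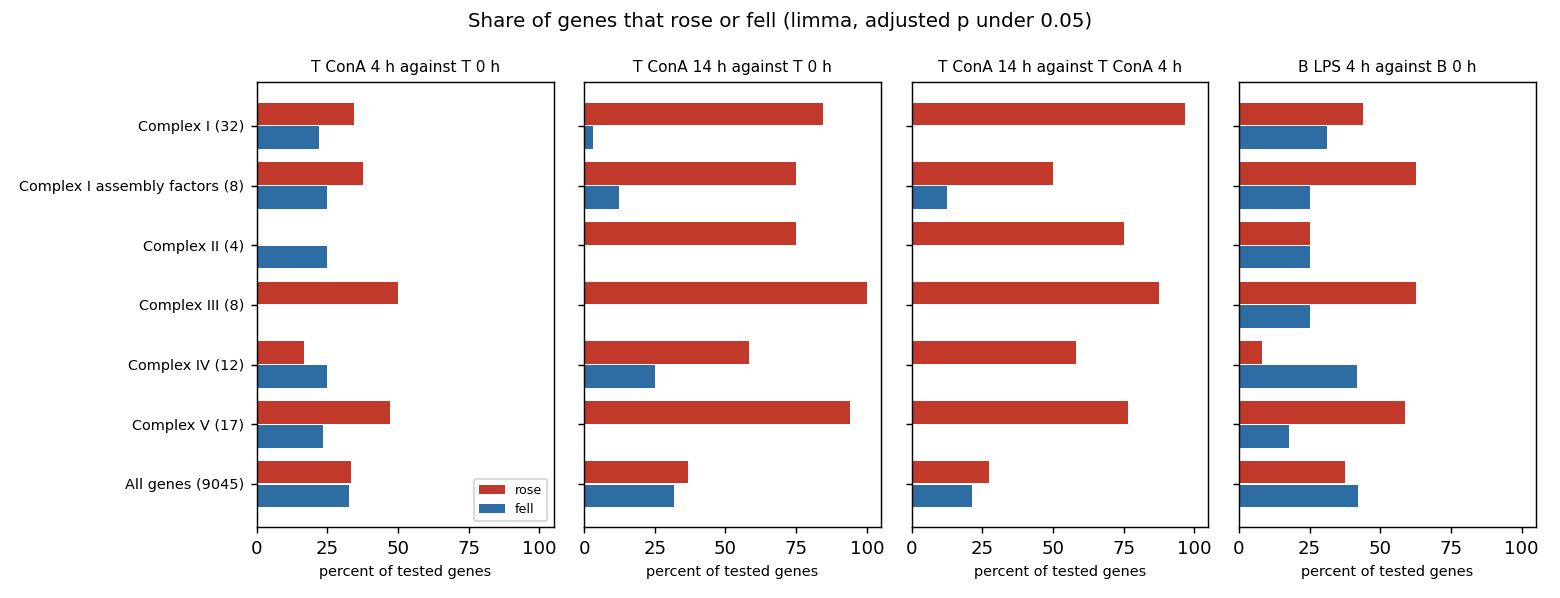
Percent of tested genes of each complex and of all 9045 genes that rose (red) or fell (blue) in 4 comparisons, with the number of genes in parentheses. In T ConA 14 h against 4 h the bars for rising genes exceed that of all genes in each complex, and in the 2 comparisons of 4 h with 0 h both directions appear.

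In B cells 4 h of LPS also moved members in both directions. Of the 81 genes 36 rose and 23 fell, beside 37.6% and 42.3% of all genes, with a median of 0.11. At least 2-fold changes were seen in 9 rising and 8 falling members of 81, beside 1689 and 2181 of all 9045 genes. Ndufaf4 read 11.15, 11.09 and 11.14 after LPS, against 8.57, 8.71 and 8.38 at 0 h, a 5.95-fold rise of 2.57 ± 0.08 (adjusted p = 1.81e-12). Its LPS arrays were the highest of all 15, and a second probe set rose by 1.89 ± 0.07. Ndufaf6, an assembly factor of complex I related to squalene synthases, read 6.61, 6.76 and 6.72 after LPS and 4.67, 5.02 and 3.64 at 0 h, where replicate 3 lay far below the others, and rose by 2.26 ± 0.25 (adjusted p = 1.33e-06). Uqcrq (1.49 ± 0.09, adjusted p = 1.29e-09), Atp5g1 (1.27 ± 0.09, adjusted p = 7.8e-09), Ndufb6 (1.09 ± 0.10, adjusted p = 2.04e-07) and Cox5a (0.85 ± 0.07, adjusted p = 6.25e-08) rose as well. Ndufa12 rose by 1.31 ± 0.07 (adjusted p = 2.74e-10) on its brightest probe set and by 1.32 ± 0.10 and 1.24 ± 0.08 on 2 others, while a further, dim one fell by 1.09 ± 0.22 (adjusted p = 0.000369). The falls were led by Cox7a2l, with 9.04, 9.37 and 9.07 after LPS, against 11.26, 11.28 and 11.29 at 0 h, a change of -2.12 ± 0.09 (adjusted p = 5.81e-11). Ndufaf3 (-1.66 ± 0.12, adjusted p = 8.02e-09), Ndufb11 (-1.32 ± 0.07, adjusted p = 7.34e-10) and Ndufa6 (-1.16 ± 0.08, adjusted p = 1.26e-08) followed, all without overlap between the groups, and Cox6b2 changed by -1.70 ± 0.21. In complex II, Sdha fell by 0.67 ± 0.07 (adjusted p = 6.26e-07), and by 1.497 ± 0.10 on its second bright probe set, and Sdhd rose by 0.30 ± 0.06 (adjusted p = 0.000202). Sdhb (interval of the change -0.18 to 0.17) and Sdhc (-0.35 ± 0.19) did not pass, and Sdhc passed without T ConA 4 h replicate 1, which enters the common estimate of spread (adjusted p = 0.00183). Complex IV had 1 rise and 5 falls among 12 genes.

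The 4 h changes of the members in B cells and T cells share no array and can be set side by side. Across the 81 genes Pearson's r was 0.841 and Spearman's rho 0.844, against r = 0.523 over all 9045 genes. The 81 include Cox6b2, whose fall in both follows from how it was kept, and r without it was not computed. Genes are not independent replicates, so no p is given. Both contrasts run from a 0 h group with high Xist to a 4 h group with low Xist. The summed signal of the erythroid markers was also lower at 4 h in both, though Alas2 was at the floor in the T cell groups. There were 25 members that rose in both, 69.4% of those rising in B cells and 89.3% of those rising in T cells, beside 64.3% and 72.3% for all genes. A further 13 fell in both, 56.5% of the B cell falls and 76.5% of the T cell falls, beside 57.5% and 74.8% for all genes. Ndufaf4, Ndufaf2, Uqcrq, Ndufa12 and Atp5g1 led the shared rises, and Cox7a2l, Ndufaf3, Cox7c and Ndufb11, with Cox6b2, the shared falls. Only Ndufa10 and Sdhd rose in B cells and fell in T cells, and 0 members did the opposite by the limma calls. The difference between the 4 h responses, B cells minus T cells, was tested as an interaction, in which 22 members were higher and 18 lower, beside 31.3% and 34.8% of all genes. The rise of Ndufaf4 was larger in B cells by 1.40 ± 0.12 (adjusted p = 1.46e-07), and the change of Ndufaf6, which did not pass in T cells (0.42 ± 0.25), was higher in B cells by 1.83 ± 0.36 (adjusted p = 0.00044). Falls were deeper in B cells for Cox7a2l (-1.07 ± 0.13, adjusted p = 8.29e-06), Ndufaf3 (-1.01 ± 0.16, adjusted p = 9.27e-05) and Ndufa6 (-0.80 ± 0.12, adjusted p = 4.37e-05). Sdhd (0.48 ± 0.08, adjusted p = 0.000137) and Sdha (-0.65 ± 0.10, adjusted p = 5.27e-05) differed in opposite directions within complex II. For Ndufs1 (-0.05 ± 0.10, interval -0.26 to 0.17) and Cox4i1 (0.01 ± 0.09, interval -0.18 to 0.19) the interaction did not pass.

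**Figure D5:**
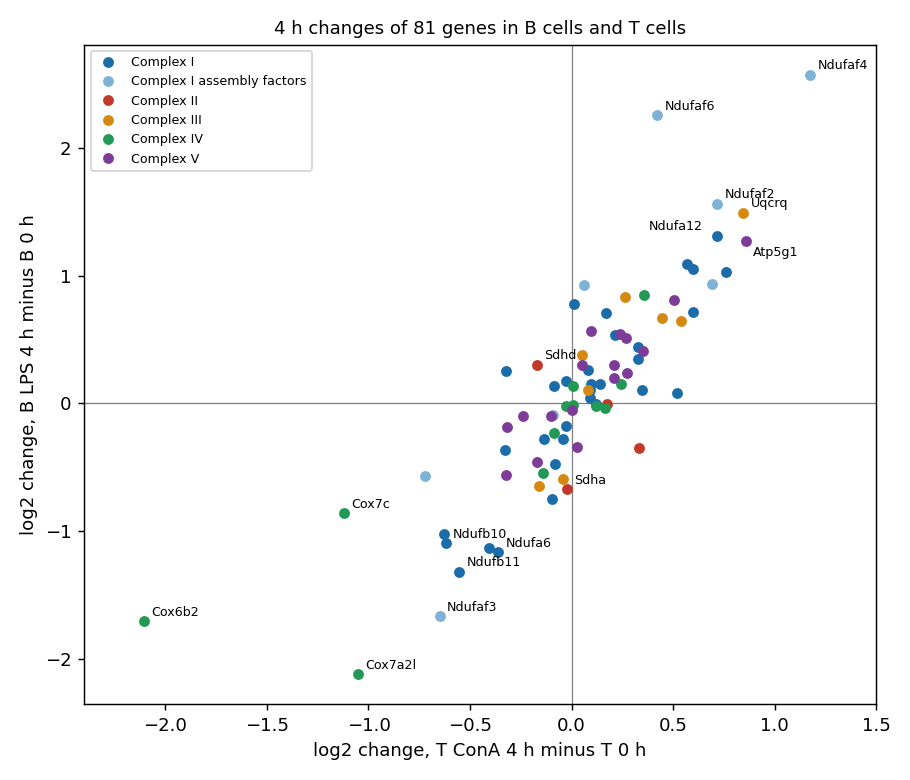
Log2 change of each of the 81 tested genes after 4 h of LPS in B cells (vertical axis) against that after 4 h of ConA in T cells (horizontal axis), coloured by complex. Ndufaf4 lies at the upper right and Cox7a2l at the lower left, and Sdhd is above 0 in B cells and below 0 in T cells.

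At rest, 7 members were higher and 61 lower in B cells than in T cells, beside 25.5% and 51.1% of all genes. After cyclic loess the split was 14 higher and 45 lower. The median difference was -0.45, against -0.27 over all genes. The shift of all genes depended on the scaling and was -0.37 with array medians set equal and -0.13 after cyclic loess. Ndufv3 read 9.96, 10.12 and 10.17 in B cells, against 11.21, 11.37 and 11.23 in T cells, a difference of -1.19 ± 0.08 (adjusted p = 9.49e-09). Cox8a (-1.12 ± 0.10, adjusted p = 1.61e-07), Ndufa4 (-1.06 ± 0.09, adjusted p = 9.64e-08), Uqcr11 (-0.97 ± 0.09, adjusted p = 1.73e-07) and Ndufaf5 (-1.76 ± 0.10, adjusted p = 2.21e-09) were lower in B cells too. Sdha and Atp5a1 were among the 7 that were higher in B cells. Other core subunits went both ways, with Uqcrc1 and Uqcrfs1 also among the 7 and Ndufv1 and Ndufs7 lower in B cells. Ndufv1 averaged 10.05 in B cells against 10.60 in T cells, and Ndufs7 10.95 against 11.44. Ndufs1, Sdhb and Atp5b did not pass in the main fit. Sdha read 11.10, 11.03 and 11.001 in B cells, against 10.69, 10.46 and 10.47 in T cells (0.51 ± 0.07, adjusted p = 1.55e-05), and Atp5a1 read 12.30, 12.28 and 12.34 in B cells, against 11.96, 11.55 and 11.95 in T cells (0.49 ± 0.12, adjusted p = 0.00274). Ndufs8 (0.48 ± 0.10, adjusted p = 0.000416), Cox7c (0.58 ± 0.12, adjusted p = 0.000753), Uqcrc1 (0.38 ± 0.12, adjusted p = 0.00996), Uqcrb (0.34 ± 0.08, adjusted p = 0.00154) and Uqcrfs1 (0.14 ± 0.06, adjusted p = 0.0476) were the others. The second bright probe set of Sdha lay at a mean of 10.59 in B cells, against 10.51 in T cells. Another bright probe set of Atp5a1 differed by -0.061 (adjusted p = 0.398) and that of Uqcrb by -0.12 (adjusted p = 0.312). In T cells at rest Atp5a1 and Uqcrc1 were lowest on T 0 h replicate 2, where the dap 5' signal was weak, and without that array Uqcrc1 (0.29, adjusted p = 0.0537) and Uqcrfs1 (0.13, adjusted p = 0.0998) did not pass. Uqcrfs1 was also lost without most other single arrays. The spike-in difference was lower on every B cell array than on any T cell array, so labelling and cell type cannot be told apart here.

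Of the 90 members, 51 had more than 1 probe set, and 66 of the 89 further probe sets reached a group mean of 5. Between 4 h and 14 h of ConA, 58 of these 66 moved in the direction of the gene's brightest probe set, and 50 rose and 2 fell. A called change in the opposite direction was seen in 1, a dim probe set of Ndufab1, the mitochondrial acyl carrier protein, which fell by 0.56 ± 0.10 (adjusted p = 0.000374), while another dim one rose by 1.05 ± 0.18. For T ConA 14 h against 0 h, dim probe sets of Atp5c1 (-1.38 ± 0.17, against 0.22 on the brightest) and Ndufab1 were called in the opposite direction, and after LPS those of Ndufa12 and Ndufab1. Between 0 h and 4 h of ConA 0 of 66 were, by the limma calls.

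Genes that act with the complexes were counted from lists drawn up by function. Between 4 h and 14 h of ConA, 13 of 14 glycolysis genes rose (median 0.76), led by Tpi1 (2.51 ± 0.08), as did 59 of 76 mitochondrial ribosomal protein genes (median 0.40), led by Mrps25 (1.03 ± 0.13), and 7 of 12 tricarboxylic acid cycle genes (median 0.33), led by the citrate synthase gene Cs (0.70 ± 0.08), beside 27.4% rising of all genes. In these 3 lists 0 fell by the limma test. Of the 46 cytoplasmic ribosomal protein genes 12 rose and 3 fell (median 0.05), a rising share near that of all genes. Among carriers and other enzymes that feed ubiquinone, 9 of 18 rose and 2 fell, with Coq7, an enzyme of ubiquinone synthesis, at 1.24 ± 0.10, Etfb, a subunit of the electron transfer flavoprotein, at 1.19 ± 0.11 and Coq2 at -0.30 ± 0.07. Assembly factors gave 4 rises and 1 fall of 8 for complex I outside the Ndufaf names (Nubpl 1.65 ± 0.18, Tmem186 -0.81 ± 0.11), 4 and 0 of 4 for complex II, 3 and 1 of 5 for complex III (Bcs1l 0.72 ± 0.12, Ttc19 -1.48 ± 0.20), 6 and 2 of 18 for complex IV (Surf1 0.70 ± 0.11, Sco1 -0.50 ± 0.19) and 4 and 0 of 5 for complex V (Tmem242 0.98 ± 0.12). Of 18 genes of mitochondrial DNA transcription, replication and their regulators 1 rose and 6 fell, beside 21.5% falling of all genes, among them the transcription factor Nrf1 (-1.34 ± 0.06, adjusted p = 2.43e-09) and the coactivator Pprc1 (-0.63 ± 0.07, adjusted p = 9.37e-06). Nrf1 averaged 8.12 on the T cell arrays at 0 h, 7.99 at 4 h and 6.65 at 14 h, and Pprc1 9.08, 10.34 and 9.71 at these times. Of 24 protein import and chaperone genes 23 rose and 0 fell by the limma test between 0 h and 4 h of ConA (median 0.76), and 24 rose after LPS (median 1.52), beside 33.4% and 37.6% of all genes. Between 4 h and 14 h 12 rose (median 0.25). Of the 26 listed mitochondrially encoded genes the array named ND5 alone, a complex I subunit, which read 13.43 at 14 h and 13.39 at 4 h (0.04 ± 0.10, adjusted p = 0.81).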

How the data were processed

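Affymetrix expression arrays were made from total RNA of mouse spleen T cells and B cells in 5 groups of 3. The deposited values are log2 signals that the authors computed with GCRMA, per the submitters' processing notes, with the version not given in the sources used here. They covered 45101 probe sets and had a floor of 2.24, within 0.001 of which 40.1% of values lay. Array medians were 2.42 to 2.57. The number of arrays limits the precision.

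Probe sets with 1 symbol in the platform annotation (34958, beside 932 with several and 9211 with none) were kept, and the brightest one per gene gave 18194 genes, of which 9045 had a group mean of at least 5 and were tested. Of the kept probe sets, 34754 matched a RefSeq gene by Entrez identifier. The limma package (3.58.1, R 4.3.3) then fitted group means to all 15 arrays and moderated the variances (10 residual degrees of freedom and 3.16 prior ones), and p-values were Benjamini-Hochberg adjusted over all tested genes within each of 6 contrasts, the interaction being the B cell LPS change minus the T cell ConA 4 h change. On simulated data for T ConA 14 h against 4 h over 9045 genes, there were 5 false calls among 8845 unchanged genes. The fit recovered 39% of genes changed 1.3-fold, 66% of those changed 1.5-fold and 92% of those changed 2-fold. Far more genes changed in the real data, where 2479 rose and 1948 fell, and the adjusted p depends on that number. The recovered shares therefore do not carry over to the real data.

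The members and the gene lists were chosen with earlier results of these data known. Genes were named by rule: per complex up to 4 called rises and 2 called falls for 14 h against 4 h, up to 2 each way elsewhere, the catalytic core and isoform genes in any case, and up to 3 each way from each other list. Other scalings, level filters, probe set choices, variance models, covariates and array subsets were tried. Probe sets with several symbols, and members not on this list of symbols, were not analysed here.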

Additional observations from a re-analysis of the deposited data

Results flagged for a closer look

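The changes of 22 named genes after 4 h differed between cell types by the interaction test, and each value here is the log2 change of B cells with LPS minus that of T cells with ConA. Genes were named partly because this test called them, so their number is no measure of how often members differed. Over all 81 tested members the change in B cells was higher for 22 and lower for 18, beside 31.3% and 34.8% of all genes. The B cell change was the higher one in complex I and its assembly factors for Ndufaf6 (1.83), Ndufaf4 (1.40), Ndufs5 (0.77) and Ndufa12 (0.60), and the lower one for Ndufaf3 (-1.01), Ndufa6 (-0.80) and Ndufb11 (-0.76). Within complex II it was higher for Sdhd (0.48) and lower for Sdhc (-0.68) and Sdha (-0.65). The complex III genes Uqcrq (0.65) and Uqcr10 (0.57) had the higher change in B cells, and Uqcrb (-0.55) and Uqcrh (-0.49) had the lower one. In complex IV, Cox5a (0.49) was higher and Cox7a2l (-1.07) and Cox8a (-0.41) were lower. In complex V, Atp5b (0.47), Atp5g1 (0.41) and Atp5g3 (0.25) were higher and Atp5pb (-0.37) and Atp5e (-0.29) were lower. The calls on 3 of these turned on single arrays. Sdhc (-0.60 to -0.70, adjusted p = 0.0508 to 0.0951) was lost without any 1 of 11 arrays, Atp5g3 (0.20 to 0.25, adjusted p = 0.0583 to 0.0917) without any 1 of 7, and Atp5b (0.38 to 0.44, adjusted p = 0.051 to 0.0638) without B 0 h replicate 3 or T 0 h replicate 1 or 3. The size of the Sdhc value leans on T ConA 4 h replicate 1, which has the weak dap 5' signal. Sdhc read 10.30 on that array, against 9.35 and 9.33 on the others of its group. The mitogens differed between the cell types, so cell type and mitogen cannot be told apart.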

How the results depend on the processing

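Of 212 named values recomputed under 29 settings, 5866 of 6112 kept their call or their lack of one. Another 123 lost the call, 107 gained one, and 16 changed sign with the main or the new value called. Values that changed sign with neither called are among the 5866. Leaving out 1 array at a time gave these ranges: 61 to 67 rising and 1 falling for T ConA 14 h against 4 h, 21 to 30 and 13 to 22 for T ConA 4 h against 0 h, 62 to 68 and 4 to 5 for T ConA 14 h against 0 h, 31 to 37 and 23 to 25 for LPS, 6 to 9 higher and 58 to 62 lower for B against T cells at rest, and 20 to 26 and 15 to 19 for the interaction. Over the other settings the counts were 55 to 74 and 1 to 2, 20 to 32 and 14 to 22, 56 to 71 and 4 to 7, 30 to 40 and 21 to 28, 6 to 14 and 45 to 66, and 18 to 24 and 15 to 21 in the same order. Counts past 1.5 times were 2 falling between 4 h and 14 h, with the second brightest probe sets and with probe sets not ending in _s_at or _x_at (a setting chosen after seeing the data), and 14 higher in B cells at rest after cyclic loess. The cause was not tested.

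All but 1 of the sign changes counted above came from another probe set or the mean of a gene's probe sets. Between 4 h and 14 h of ConA the second brightest probe set gave -0.29 for Atp5g2 and -0.070 for Atp5c1, that of Atp5c1 also without _s_at and _x_at probe sets. For T ConA 4 h against 0 h Atp5g2 gave 0.40 with the second brightest and 0.028 with the mean, and after LPS 1.44 and 0.42. Without _s_at and _x_at probe sets Ndufa12 gave -0.17 for T ConA 14 h against 0 h, -1.09 after LPS and -1.45 for the interaction. The mean gave -0.18 for Uqcr10 at T ConA 14 h against 0 h. Atp5a1 gave -0.0745 after LPS with the second brightest, and at rest -0.061 with it and -0.65 with the mean. At rest Uqcrb gave -0.12 with the second brightest, and cyclic loess gave 0.15 for Cox4i1.

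The labels number the replicates in each group. Same-numbered arrays correlated at -0.457 to 0.236 in their deviations from group means. Arrays with different numbers were not set beside them, so these values cannot decide whether same-numbered arrays share mice or a preparation. With the replicate block the counts were 65 and 1, 25 and 16, 64 and 5, 33 and 23, 6 and 60, and 20 and 17 in the order above.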
